A study of Mus musculus with 3 samples.

Results

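The tumor necrosis factor (TNF) receptor family of B cells was described here as 10 genes, taken by symbol from the deposited gene tables of CH12 cells: Cd40, Tnfrsf13b, Tnfrsf13c, Tnfrsf17, Tnfrsf1a, Tnfrsf1b, Fas, Cd27, Ltbr and Tnfrsf21. All 10 were found among the 24901 gene rows, and 5 of them were measured, meaning that they had at least 1 CPM (counts relative to the size of the library, scaled between libraries) and 30 counts in at least 1 library. Over all rows, 10754 genes were measured. CH12 is a mouse B lymphoma line, and TGFb is a cytokine that acts through Smad proteins. The 3 mRNA libraries were a control, cells given TGFb at 5 ng/ml for 6 h, and cells given the same dose for 24 h, all of the same line and culture medium and with 1 library in each group. No difference below has a replicate check. No time in culture is given for the control in the labels used here, so time and treatment cannot be told apart.

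Receptors of this family are membrane proteins that bind trimeric ligands of the TNF superfamily. Some carry a death domain in their cytoplasmic tail and can couple to caspase 8, and others recruit TRAF adaptors, which lead to NF-kB. In B cells, BAFF receptor supports survival, and CD40 receives the signal of T helper cells that drives class switching. The members were therefore read in 4 roles: receptors for BAFF and APRIL, costimulatory receptors, death domain receptors, and receptors for TNF or lymphotoxin without a death domain.

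The libraries held 51386081, 64229801 and 27487221 counts for control, 6 h and 24 h. Of 10 B cell markers, 9 were measured, with a summed level of 1631 to 1864 CPM per library, and Cr2 had 0 or 1 count. Cd22, an inhibitory receptor of B cells, went against that sum, with 139, 37.0 and 15.6 CPM in control, 6 h and 24 h, or 3.76-fold lower at 6 h and 8.94-fold lower at 24 h. Markers of other cell types were lower in sum. Of 16 myeloid markers 5 were measured, and the list summed to 26.4, 37.0 and 71.1 CPM in control, 6 h and 24 h, with Elane, S100a8 and S100a9 at 0 counts and Lyz2 at 0 counts after treatment. All 5 were above control at 24 h, with Itgax 19.5-fold, Adgre1 6.35-fold, Itgam 3.75-fold, Csf1r 3.10-fold and Cd68 1.27-fold higher. Itgam was measured only through the 24 h library (0.864, 0.902 and 3.24 CPM), so it could only come out higher there. Itgax shares reads with another gene, and its ratio rests on 26 counts in control (0.535 CPM). Of 10 T cell markers 3 were measured, and the list summed to 216, 374 and 365 CPM, of which Lck and Cd5 made up most while Cd3e had 4 to 9 counts. Cd4, the third measured marker, was lower, by 2.49-fold at 6 h and 2.81-fold at 24 h. Of 10 fibroblast and endothelial markers 4 were measured, and the list summed to 4.94, 10.8 and 17.6 CPM, with Col3a1 at 0 or 1 count. All 4 measured markers were higher at 24 h, Pecam1 by 4.46-fold, Col1a1 by 4.33-fold, Pdgfrb by 3.69-fold and Cdh5 by 2.55-fold. Col1a1 was measured only through the 24 h library (0.247, 0.404 and 1.07 CPM), so it could only come out higher there. Of 6 plasma cell markers 5 were measured, and the list summed to 1004, 808 and 513 CPM, with Sdc1 at 2 to 5 counts.

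The family split into 5 receptors with ample mRNA or a low but measured level and 5 that were close to 0 in every library. Levels are compared between genes as deposited TPM, a measure of transcript abundance that divides by transcript length. Tnfrsf13c, which codes for BAFF receptor, had the highest level, with 268 TPM in control, 445 TPM at 6 h and 416 TPM at 24 h. It alone held 54.1%, 57.3% and 55.5% of the summed TPM of the 10 genes, and it ranked 571, 315 and 307 among the measured genes. Tnfrsf13b, which codes for TACI, a receptor for both BAFF and APRIL, had 111, 173 and 164 TPM. Cd40 had 101, 132 and 138 TPM. Tnfrsf1b, the TNF receptor without a death domain, had 11.1, 20.6 and 21.8 TPM, and Fas, the receptor for Fas ligand, had 4.54, 5.17 and 9.77 TPM.

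This order was the same in the 3 libraries. The closest neighbors were Tnfrsf13b and Cd40, whose TPM ratio was 1.10 in control (interval 1.05 to 1.16), 1.32 at 6 h (1.27 to 1.37) and 1.19 at 24 h (1.12 to 1.26). Intervals here and below are exact 95% intervals of a ratio of counts. They cover counting error only, and without replicates the spread between cultures is unknown. The counted model of Tnfrsf13b is 750 bases long, the coding length of the matching GENCODE transcript, so its TPM rests on a model without untranslated ends. Without division by length, Cd40 (102 CPM in control) stood above Tnfrsf13b (43.5 CPM).

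**Figure D1:**
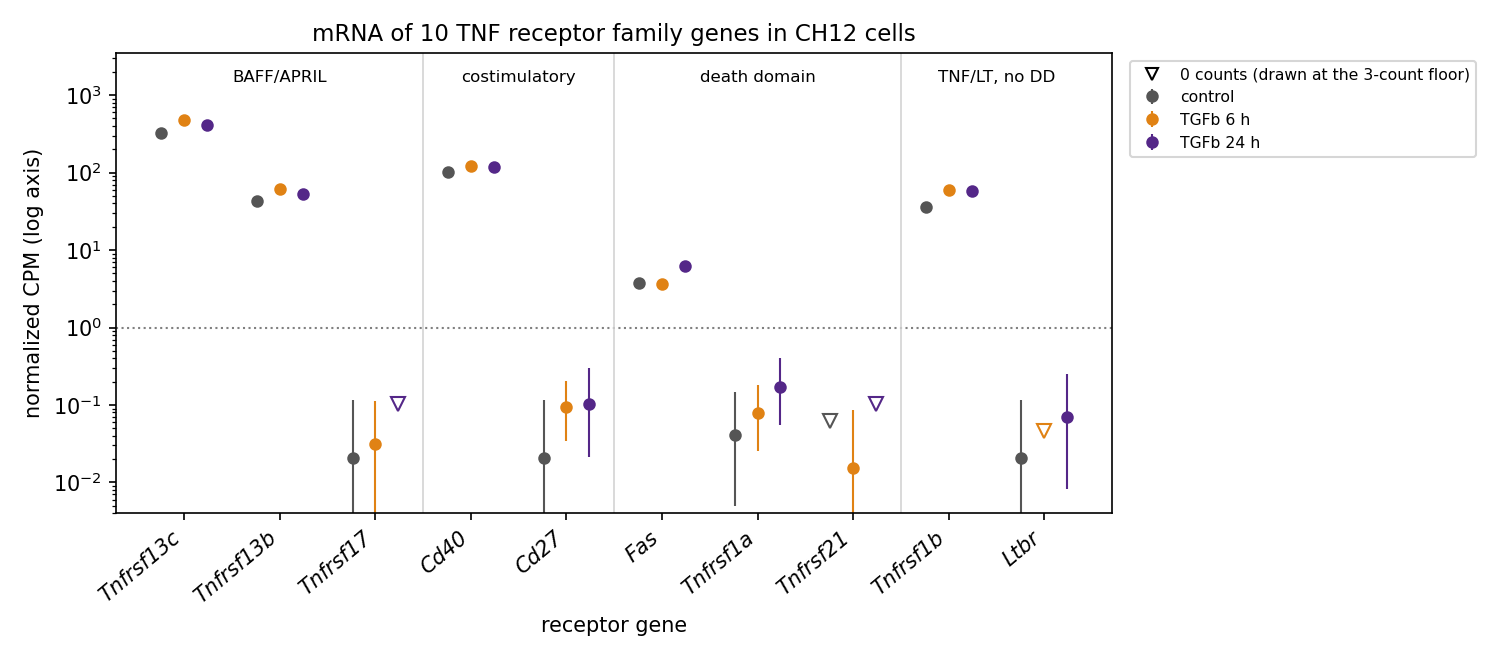
Normalized CPM (log axis) of the 10 receptor genes in control, 6 h and 24 h libraries, grouped by role, with exact Poisson intervals for counting error and open triangles at the 3-count floor for 0 counts (DD, death domain; LT, lymphotoxin). The dotted line marks 1 CPM: 5 genes lie above it in each library, from Fas at 3.67 CPM to Tnfrsf13c at 476 CPM, and 5 lie below 0.2 CPM.

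The promoters of 4 measured receptors are shown because these are the genes whose mRNA could be followed through the treatment. RefSeq promoter windows of GRCm38.p6 (250 bases before to 50 after the start) matched 9 of the 10 members, all but Cd40. The 250 bases before the start are printed 5′ to 3′ on the gene's strand: chr15:82224381-82224630 (minus strand) for Tnfrsf13c, chr11:61126505-61126754 (plus) for Tnfrsf13b, chr4:145246871-145247120 (minus) for Tnfrsf1b and chr19:34290409-34290658 (plus) for Fas. Capitals mark CAGAC or its reverse complement GTCTG, a short element that Smad proteins can bind.
Tnfrsf13c: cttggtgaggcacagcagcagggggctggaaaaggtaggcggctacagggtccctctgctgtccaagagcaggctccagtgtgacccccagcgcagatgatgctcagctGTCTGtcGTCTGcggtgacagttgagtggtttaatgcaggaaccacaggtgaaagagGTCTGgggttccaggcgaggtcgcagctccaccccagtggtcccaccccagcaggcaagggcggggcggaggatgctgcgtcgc
Tnfrsf13b: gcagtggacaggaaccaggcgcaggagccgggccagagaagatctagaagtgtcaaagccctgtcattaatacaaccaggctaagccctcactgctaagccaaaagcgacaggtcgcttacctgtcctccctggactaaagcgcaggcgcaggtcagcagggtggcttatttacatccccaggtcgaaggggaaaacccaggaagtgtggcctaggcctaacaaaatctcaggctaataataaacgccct
Tnfrsf1b: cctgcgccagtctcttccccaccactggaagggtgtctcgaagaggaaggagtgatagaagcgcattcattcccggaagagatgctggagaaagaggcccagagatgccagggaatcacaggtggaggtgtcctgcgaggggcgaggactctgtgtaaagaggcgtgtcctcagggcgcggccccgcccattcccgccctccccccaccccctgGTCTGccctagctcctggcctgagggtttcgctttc
Fas: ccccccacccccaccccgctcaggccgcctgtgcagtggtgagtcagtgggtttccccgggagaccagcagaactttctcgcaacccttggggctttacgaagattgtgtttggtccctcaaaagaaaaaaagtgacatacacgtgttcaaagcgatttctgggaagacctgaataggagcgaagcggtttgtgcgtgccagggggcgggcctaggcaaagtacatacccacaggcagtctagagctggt
Searched on both strands over the full 300 bases, CAGAC was found 4 times for Tnfrsf13c, 1 time for Tnfrsf1b and 0 times for Tnfrsf13b and Fas. In the Tnfrsf13c window the matches began at -141, -134, -84 and 31, with the first transcribed base counted as 0. Of 27025 promoters of this length, 49.7% held at least 1 match and 0.862% held 4 or more, the latter count chosen after the value was seen. Among the members that were not measured, Cd27 held 1 match and the windows of Tnfrsf17, Tnfrsf1a, Ltbr and Tnfrsf21 held 0. The NF-kB consensus, searched on both strands, was found in 0 of the 9 windows and in 8.18% of all. The windows of Tnfrsf13b and Tnfrsf17 lie inside the annotated spans of these genes, which begin at 61126283 and 11313232. Their starts are thus not the first base of the gene, and their 0 matches describe bases after it. A match or its absence describes these letters only. The GC content of the windows was 55.3% to 62.7% for the 4 measured members and 50.0% to 70.0% for the 5 others, beside a median of 61.0% for the windows of measured genes.

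The first question was which receptor mRNAs stood apart from control early in treatment, at 6 h. Both measured BAFF and APRIL receptors were above control. Control cells held Tnfrsf13c (chromosome 15, 82221742 to 82224380) at 320 CPM and 6 h cells at 476 CPM, a ratio of 1.49 (interval 1.46 to 1.52). Tnfrsf13b (chromosome 11, 61126283 to 61153170) had 43.5 and 60.8 CPM, a ratio of 1.40 (1.33 to 1.48). The ratios of these receptors were close, and their intervals overlap.

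The level of Cd40 (chromosome 2, 165055614 to 165071654) was 102 CPM without TGFb and 120 CPM after 6 h, a smaller ratio of 1.17 (1.13 to 1.22). Tnfrsf1b (chromosome 4, 145212368 to 145246870) had 35.7 and 59.3 CPM. Its ratio of 1.66 (1.57 to 1.76) was the highest of the 5 members at 6 h, and 5.12% of measured genes had a higher one. With the length trend removed it was 1.52, below Tnfrsf13b and Tnfrsf13c (both 1.61). Fas (chromosome 19, 34290647 to 34327775) had 3.70 and 3.67 CPM, a ratio of 0.991 with an interval of 0.813 to 1.21 that holds 1. Which side of 1 it fell on turned with the scaling, with 3 of 6 settings above 1.

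None of the 5 measured members was 2-fold apart at 6 h, where 2.4% of all measured genes were at least 2-fold higher and 0.363% lower. At a limit of 1.5-fold, Tnfrsf1b alone passed, beside 6.77% of measured genes that were higher and 2.14% that were lower by that limit. The ratio was above 1 for 4 of the 5, as for 49.3% of measured genes. The median log2 ratio of the 5 was 0.48, and that of all measured genes was -0.0046. The counting interval is narrow at this depth, and 34.3% of measured genes had an interval above 1 and 37.6% below it.

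At 24 h the question was which receptor mRNAs stood apart late in treatment. Fas and Tnfrsf1b were furthest above control, except that with the length trend removed Tnfrsf1b (1.43) stood below Tnfrsf13b (1.56) and Tnfrsf13c (1.45). The level of Fas was 3.70 CPM without TGFb and 6.31 CPM after 24 h, a ratio of 1.70 (1.38 to 2.10), from 180 and 183 counts in libraries of unequal depth. Tnfrsf1b had 35.7 and 58.2 CPM, a ratio of 1.63 (1.53 to 1.75). T cells and myeloid cells also carry both receptors, and the summed T cell markers (through Lck and Cd5, with Cd4 lower) and myeloid markers were above control in the same library, as were the fibroblast and endothelial markers. Their part in these ratios was not tested.

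The other measured members stood closer to control at 24 h in the settings without the length correction. Tnfrsf13c had 413 CPM, a ratio of 1.29 (1.26 to 1.32), Tnfrsf13b had 52.9 CPM, a ratio of 1.22 (1.14 to 1.30), and Cd40 had 117 CPM, a ratio of 1.14 (1.09 to 1.19). Again 0 of the 5 reached 2-fold, where 7.41% of measured genes were higher by that limit and 2.02% lower. At 1.5-fold, Fas and Tnfrsf1b passed, beside 16.8% of measured genes higher and 11.8% lower. All 5 ratios and their intervals lay above 1, where 49.0% of measured genes had a ratio above 1, 38.3% an interval above it and 41.0% an interval below it. The median log2 ratio of the 5 was 0.37. With the deposited TPM, or with the trend of ratio over transcript length removed, Fas passed 2-fold at 24 h, with ratios of 2.15 and 2.10. The deposited TPM also moved the median log2 ratio of all measured genes, by 0.26. No share of all measured genes past 2-fold is given for these settings. The comparisons at 6 h and 24 h share the control library, so the ratios above 1 in both are not independent.

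Between 6 h and 24 h, Fas differed from the other members. Its level went from 3.67 to 6.31 CPM, a ratio of 1.72 (1.41 to 2.09), and 3.40% of measured genes had a higher ratio. Tnfrsf13c and Tnfrsf13b were lower at 24 h than at 6 h, by 1.15-fold each (1.13 to 1.18, and 1.08 to 1.22), and stayed below 1 in all 6 settings. Cd40 and Tnfrsf1b had ratios of 0.972 and 0.982, with intervals that hold 1 and ratios above 1 with total counts and the deposited TPM (for Cd40 also with the length trend removed). None was 2-fold apart, as against 1.87% of measured genes higher and 0.372% lower. At 1.5-fold Fas passed, beside 6.36% higher and 2.11% lower. Fas was the 1 member of 5 with a ratio and interval above 1, where 47.2% of measured genes had such a ratio and 29.3% such an interval. Both BAFF and APRIL receptors had an interval below 1, as did 36.1% of measured genes. The interval of Fas does not overlap that of any other measured member. No test of that difference between cultures was possible.

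**Figure D2:**
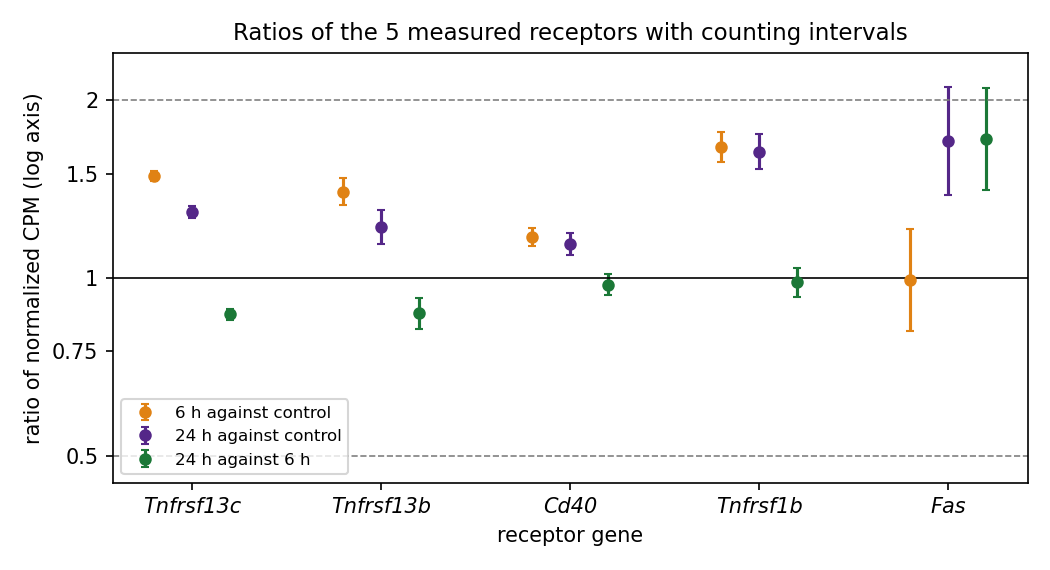
Ratio of normalized CPM (log axis) for the 5 measured receptors in the 3 comparisons, with exact 95% counting intervals and dashed lines at 2-fold. Tnfrsf13c, Tnfrsf13b, Cd40 and Tnfrsf1b lie above 1 at 6 h and 24 h against control, and Fas lies near 1 at 6 h and at 1.70 at 24 h.

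The deposited tables also give each gene's mean transcript length, weighted by the isoforms that RSEM assigned reads to. For Fas this length was 1376 bases in control, 1341 at 6 h and 1321 at 24 h. The GENCODE transcripts that match its counted models are a 9-exon form of 1481 bases and a 3-exon form of 532 bases with a short coding sequence. The mean lengths of Tnfrsf13c stayed within 1937 to 1938 bases and those of Cd40 within 1674 to 1676 bases. Single isoform counts were not used here.

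The other 5 receptors had almost no counts. Tnfrsf17, which codes for BCMA, a survival receptor of plasma cells, had 1, 2 and 0 counts in control, 6 h and 24 h, where 0 counts, with a limit of 3 counts, allow a level of up to 0.103 CPM at 24 h. Cd27, a costimulatory receptor bound by CD70, had 1, 6 and 3 counts. Tnfrsf1a, the TNF receptor with a death domain, had 2, 5 and 5 counts, and Tnfrsf21, which codes for death receptor 6, had 0, 1 and 0. Ltbr, the lymphotoxin beta receptor, had 1, 0 and 2 counts. These counts are too few to read a change. Such levels were common: 39.9% of the 20668 protein-coding rows had at most 6 counts in each library. Of the receptors for TNF, Tnfrsf1b had 1690 to 3815 counts and Tnfrsf1a 2 to 5.

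Cd27, Ltbr and Tnfrsf1a lie within 129.9 kb of each other on chromosome 6 (125232620 to 125362483). The protein-coding genes between them were near 0 too, with Tuba3a at 2, 0 and 0 counts and Scnn1a, a sodium channel subunit, at 0, 0 and 1. Plekhg6, the next such gene after Tnfrsf1a, had 0 counts in each library. On the other side Tapbpl, which edits peptides on MHC class I, ends shortly before Cd27 and had 894, 1067 and 549 counts (14.3, 14.4 and 17.7 TPM). The low counts thus ran from Cd27 to Plekhg6 in the order of the annotation.

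**Figure D3:**
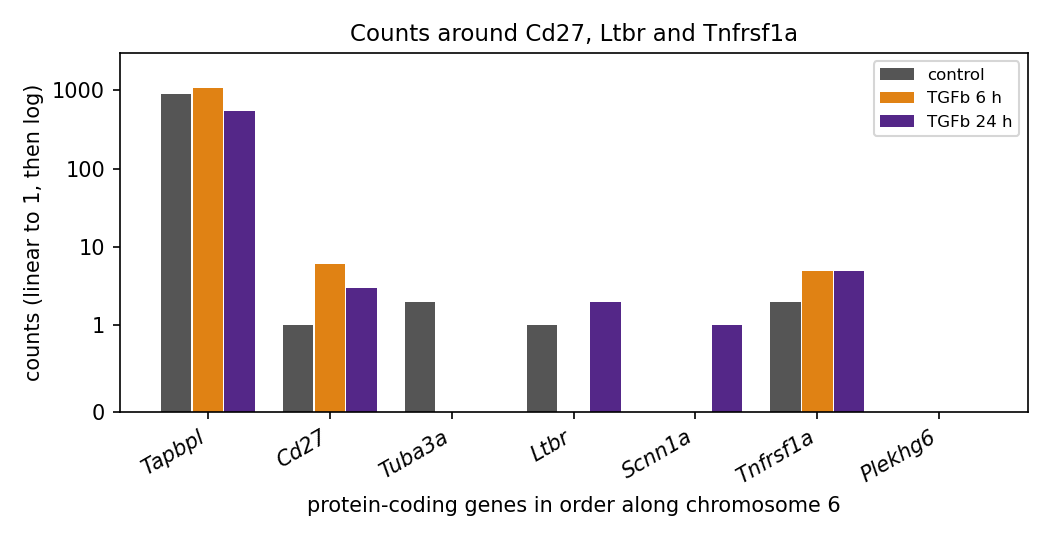
Counts in the 3 libraries (axis linear to 1, then log) for the protein-coding genes from Tapbpl to Plekhg6, in their order on chromosome 6. Tapbpl has 549 to 1067 counts, and each of the 6 genes after it has at most 6.

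Ligands of these receptors were read from a list of 18 TNF superfamily genes, of which 12 were measured. CH12 cells held mRNA for ligands whose receptors were near 0. Ltb, which codes for lymphotoxin beta, had 684, 599 and 690 TPM while its receptor Ltbr had at most 0.06 TPM. Cd70 had 49.7, 36.8 and 41.9 TPM beside at most 0.15 TPM of Cd27. Tnf had 21.1, 23.7 and 18.0 TPM, beside 11.1, 20.6 and 21.8 TPM of its receptor Tnfrsf1b. Lta, lymphotoxin alpha, had 9.20, 13.8 and 8.35 TPM.

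The reverse held for the most abundant receptors. Tnfsf13b, which codes for BAFF, had 0.53, 0.64 and 1.57 TPM, against 268 to 445 TPM of Tnfrsf13c. Tnfsf13, which codes for APRIL, had 0.36, 0.60 and 0.41 TPM and was not measured. Cd40lg had 2, 3 and 1 counts and Fasl 6, 3 and 2 counts.

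**Figure D4:**
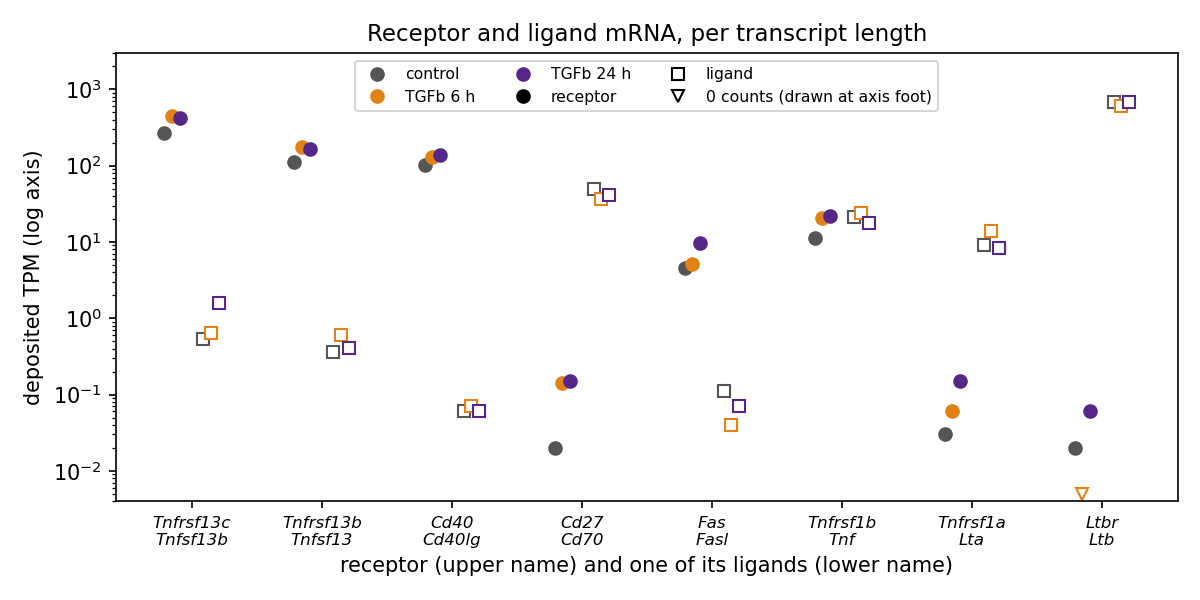
Deposited TPM (log axis) of 8 receptors (filled circles) and a ligand of each (open squares) in the 3 libraries, with a triangle for 0 counts. Tnfrsf13c, Tnfrsf13b and Cd40 lie above 100 TPM with ligands under 2 TPM, and Ltb lies at 599 to 690 TPM with Ltbr at or below 0.06 TPM.

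Among the 12 measured ligands, 0 were 2-fold apart at 6 h, and at 24 h 1 was higher and 2 were lower, beside 7.41% and 2.02% of all measured genes at 24 h (2.4% and 0.363% at 6 h). The higher ligand was Tnfsf13b, by 2.42-fold (1.44 to 4.11), a ratio that rests on 27 and 39 counts. It was measured only through the 24 h library (0.556, 0.606 and 1.34 CPM), so it could only be called higher there. Tnfsf9, which codes for 4-1BB ligand, had 114, 69.8 and 55.0 CPM and was 2.06-fold lower at 24 h (1.95 to 2.18). Tnfsf14, which codes for LIGHT, a ligand of Ltbr, had 19.6, 11.5 and 9.55 CPM, also 2.06-fold lower (1.80 to 2.36). Both lower calls were lost with total counts, the deposited TPM and the length trend removed. Tnf, Lta, Ltb and Cd70 were lower than control at 24 h by 1.41-fold (1.26 to 1.58), 1.33-fold (1.10 to 1.61), 1.20-fold (1.17 to 1.23) and 1.44-fold (1.29 to 1.61), but Ltb was not lower in the deposited TPM. The median log2 ratio of the ligands was -0.22 at 6 h and -0.33 at 24 h and stayed negative in the 6 settings, beside -0.0046 and -0.01 over all measured genes.

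Of 18 other receptors of the superfamily, 10 were measured, with a median log2 ratio of 0.019 at 6 h and 0.35 at 24 h. The median at 6 h turned negative with DESeq2 size factors. At 24 h the ratio was above 1 for 7 of the 10, as for 49.0% of measured genes. By 2-fold, 0 were higher and 1 was lower at 6 h, beside 2.4% and 0.363% of all measured genes. At 24 h, 1 was higher and 2 were lower, beside 7.41% and 2.02%. Tnfrsf19, an orphan receptor also called Troy, had 11.3, 5.11 and 4.20 CPM and was 2.21-fold lower at 6 h (1.93 to 2.54) and 2.69-fold lower at 24 h (2.21 to 3.30). Its call at 6 h was lost with the deposited TPM. Tnfrsf8, which codes for CD30, had 3.31, 1.80 and 0.689 CPM. It was 4.81-fold lower at 24 h (3.01 to 8.08), from 161 and 20 counts. Tnfrsf10b, the mouse TRAIL receptor with a death domain, had 2.16, 3.59 and 4.69 CPM and was 2.17-fold higher at 24 h (1.67 to 2.83). Tnfrsf8 lies 20.3 kb from Tnfrsf1b on chromosome 4, and the neighbors stood on opposite sides of control: the ratio of Tnfrsf1b was 1.63 at 24 h.

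Downstream of the receptors, no TRAF adaptor or partner and no death domain or caspase 8 pathway gene passed the 2-fold limit in the main setting. By that limit, 2.4% of all measured genes were higher and 0.363% lower at 6 h, and 7.41% and 2.02% at 24 h. Among the other scalings, Birc2 passed at 24 h with total counts and the deposited TPM, and Xiap with the deposited TPM. Both were named after their values were seen. All 16 TRAF adaptors and partners were measured, with a median log2 ratio of 0.15 at 6 h and 0.26 at 24 h. Traf3, which restrains BAFF receptor and CD40 signalling, had 124, 170 and 174 CPM, a ratio of 1.40 at 24 h (1.35 to 1.46), and Tnip1, a partner of the inhibitor A20, had 186, 198 and 194 CPM. Of 14 death domain adaptors and caspase 8 pathway genes, 11 were measured, with medians of -0.0086 and -0.05 that turned positive with total counts and the deposited TPM. The ratio was above 1 for 5 of the 11 at 6 h and for 5 at 24 h, but not for Bid. Of all measured genes, 49.3% and 49.0% had such a ratio. Bid, which carries the caspase 8 signal to mitochondria, had 154, 124 and 102 CPM.

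The NF-kB arm had 21 measured genes of 21, with median log2 ratios of 0.12 and 0.05 and 0 genes past 2-fold at either time. Of all measured genes, 2.4% were higher and 0.363% lower by that limit at 6 h, and 7.41% and 2.02% at 24 h. Nfkb1 had 444, 564 and 617 CPM, a ratio of 1.39 at 24 h (1.36 to 1.42). Nfkbia, an inhibitor that NF-kB itself induces, had 235, 339 and 375 CPM, a ratio of 1.60 (1.56 to 1.64). Of 20 response genes of CD40 and NF-kB in B cells, 18 were measured, with medians of 0.13 and 0.21. The ratio was above 1 for 12 of the 18 at 24 h, beside 49.0% of all measured genes. By 2-fold, 0 were higher and 2 lower at 24 h, and none was called at 6 h. Pim1, a survival kinase, had 249, 150 and 87.1 CPM and was 2.86-fold lower at 24 h (2.74 to 2.99). Myc was 2.10-fold lower at 24 h (2.05 to 2.15), a call lost with total counts, the deposited TPM and the length trend removed.

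Over the 6 lists, 88 of 107 genes were measured. At 6 h 0 were higher and 1 was lower by 2-fold, or 0% and 1.14% beside 2.4% and 0.363% of all measured genes. At 24 h 2 were higher and 6 lower, or 2.27% and 6.82% beside 7.41% and 2.02% of all measured genes. The higher ones include Tnfsf13b, which was measured only through the 24 h library. With total counts the 24 h split was 5 higher and 3 lower, and with the deposited TPM it was 7 and 3. These scalings moved the median log2 ratio of all measured genes by 0.16 and 0.26 at 24 h, and no share of all measured genes is given for them. Bcl3, Birc2 and Rel were among the genes added, named after their values were seen, and Birc2 shares reads with another gene.

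The 3 measured genes whose pattern lay nearest to that of Tnfrsf1b, the member furthest from control at 24 h by the ratio of CPM + 1, were Cd6, Inpp5d and Ncf1. Likeness was the distance between the pairs of log2 ratios of CPM + 1 against control, over 3 libraries. Inpp5d, a lipid phosphatase of B cell signalling, had 197, 326 and 317 CPM, and Ncf1, a subunit of the phagocyte oxidase, had 313, 512 and 500.4 CPM. Cd6 lay nearest but had only 0.432, 1.35 and 1.31 CPM, where adding 1 narrows the ratio. In all, 31 genes lay within a distance of 0.1.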

How the data were processed

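CH12 poly(A) mRNA was sequenced for 50 cycles, per the labels' protocols, in 3 libraries (control, 6 h and 24 h of TGFb). Tools in the submitters' processing notes are bedtools, RSEM, STAR and CASAVA 1.8.2, with build mm10. For the strand setting, the annotation and other versions the entry is: not given in the sources used here. RSEM's expected counts per gene come from the authors and were rounded here. All 10 members had whole counts (within 0.005). The authors' deposited TPM values are relative to transcript length and library size. Their deposited FPKM values were not used.

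TMM factors of 0.946, 1.00 and 1.06 (edgeR 4.0.16, R 4.3.3) scaled the libraries. A single count was worth 0.0206, 0.0155 and 0.0345 CPM. Calls required a ratio of 2-fold, and in whichever library was higher 1 CPM and 30 counts. Genes at 0 were placed at a floor of 3 counts. Groups of 1 library allow no test between conditions. Ratio intervals are exact conditional 95% intervals (scipy 1.17.1). They treat reads as independent molecules, which reads lacking molecular identifiers are not. The rule and intervals were tried on simulated Poisson counts scaled by library totals. These hold no spread between cultures and do not try the TMM scaling.

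The members, the 6 gene lists and the 5 marker lists were chosen with earlier results of these data known. The naming rule took all members, up to 4 genes per list by the ratio of CPM + 1 at 24 h among those past 2-fold (the 2 most abundant where fewer than 2 passed), the ligands of members, and the 3 nearest genes. Genes of the 6 gene lists named outside it are pointed out. Several cell type markers and the chromosome 6 neighbors were also named outside it. A gene that the rule selected is not reported here. The alternatives changed the scaling (size factors of DESeq2 1.42.0, upper quartiles, total counts or the deposited TPM), the minimum (none, or 5 CPM), the limit (1.5-fold), or removed the trend with length over 20 bins. Gene positions are those of RefSeq for GRCm38.p6, the assembly of mm10, matched by transcript accession, and transcript models are those of GENCODE M21.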

Additional observations from a re-analysis of the deposited data

How the results depend on the processing

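Leaving out a library was not possible with 1 library per group. Depth limits the 5 receptors near 0 and Tnfsf13b (27 to 39 counts). No paired analysis was possible because each group has 1 library. Under the other scalings, Tnfrsf13c, Tnfrsf13b, Cd40 and Tnfrsf1b stayed above control in 6 of 6 settings at both times. Fas at 24 h ranged from 1.67 to 2.15-fold, and Tnfrsf1b from 1.43 to 1.96-fold. No call changed direction under these alternatives.

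Against a count of 0, the members at least 2-fold higher numbered 1 at 24 h with the deposited TPM and 1 with the length trend removed (Fas). With no minimum they numbered 1 at 6 h (Cd27), 1 at 24 h and 1 for 24 h against 6 h (Tnfrsf1a), all from 6 or fewer counts. At 1.5-fold they numbered 1 at 6 h, 2 at 24 h and 1 for 24 h against 6 h.

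Of the pathway genes, 0 were higher at 6 h, but 2 with no minimum and 4 at 1.5-fold. The 1 lower gene at 6 h became 0 with the deposited TPM, 2 with no minimum and 9 at 1.5-fold. The 2 higher genes at 24 h became 5 with total counts, 7 with the deposited TPM, 7 with no minimum, 0 at 5 CPM, 14 at 1.5-fold and 4 with the length trend removed. The 6 lower genes at 24 h became 3 with total counts, 3 with the deposited TPM, 11 at 1.5-fold and 3 with the length trend removed. For 24 h against 6 h, the 1 higher gene became 4 with no minimum, 0 at 5 CPM and 3 at 1.5-fold, and the 1 lower gene became 0 at 5 CPM and 4 at 1.5-fold. The 1.5-fold counts are of 88 measured genes. By that limit, 6.77% of all measured genes were higher and 2.14% lower at 6 h. The shares were 16.8% and 11.8% at 24 h, and 6.36% and 2.11% for 24 h against 6 h. For the other alternatives no share of all measured genes is given. For the changes with scaling and length the cause was not tested.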
